A study of Mus musculus with 12 samples.

Results

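Cytochrome P450 genes in mouse liver chromatin were described from the peak lists of a ChIP-seq study of LSD1, the histone demethylase encoded by Kdm1a. The genes were chosen by name: protein-coding genes of GENCODE mouse release 21 on the mm10 (GRCm38) genome whose symbol is Cyp followed by a family number, a subfamily letter or letters and a gene number. The rule found 94 genes of 21853 protein-coding genes. It left out 6 P450 genes whose symbols have another form, which are Cyp4a12a, Cyp4a12b, Cyp4a30b, Cyp3a41a, Cyp3a41b and Cyp51. The rule uses names and no measured value, although the family was picked with earlier results of these data known.

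The series held 12 samples in 6 groups of 2 libraries, all from liver of C57BL/6 mice. LSD1 was precipitated from wild-type liver. H3K4me2, dimethylated lysine 4 of histone H3, was precipitated from liver of GFP control mice and of LSD1-LKO mice. Both H3K4me2 groups carried the floxed LSD1 alleles (LSD1 fl/fl) according to the study's methods and received an AAV8 vector as adults, which expressed GFP in controls and Cre recombinase in LSD1-LKO mice. The vector's promoter was that of Tbg, a hepatocyte gene, so that the deletion was directed at hepatocytes and not at the other cells of the liver. Each ChIP group had its own pair of control libraries, named input without antibody in the labels and IgG ChIP in the methods. By the methods, the floxed mice received a high-fat diet after the vector and males served in most experiments, without a statement for the ChIP-seq animals in particular. The diet of the wild-type mice was not named, and the lists measure neither Kdm1a RNA nor LSD1 protein in the LSD1-LKO libraries, so the deletion itself was not checked here.

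P450 enzymes are heme proteins of the endoplasmic reticulum and mitochondria that insert oxygen into lipids, steroids, vitamins and foreign compounds. Families with low numbers and many mouse copies (Cyp1 to Cyp4) oxidize drugs, toxins, fatty acids and eicosanoids, whereas single genes such as Cyp7a1, Cyp8b1 and Cyp27a1 carry out fixed steps of bile acid or steroid synthesis. Hepatocytes are the body's main site of P450 expression, and many of the genes differ between male and female liver or between the zones of the liver lobule. LSD1 removes methyl groups from H3K4me1 and H3K4me2, and H3K4me2 marks promoters and enhancers.

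Each deposited list gave the peaks that a group's 2 libraries had in common, with MACS fold enrichment and −log10 p for each library. There were 14584 LSD1 peaks, 43891 H3K4me2 peaks in the control list and 50675 in the LSD1-LKO list. A gene window was the gene body with 5 kb on either side, and a promoter was 1 kb on either side of any transcription start site (TSS) of a protein-coding transcript. Peaks were ranked as percentiles of their list, ordered by −log10 p averaged over the 2 libraries. Without reads in the lists, neither the depth of a library nor the level in a single animal is known. The P450 results are therefore counts and lengths set beside the same values over all protein-coding genes, without a test. For a single value, 2 libraries against 2 could not have given an exact two-sided permutation p below 0.333.

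The labelled tissue was checked with marker genes. In the LSD1-LKO list all 6 hepatocyte markers had an H3K4me2 promoter peak, and 5 of 6 had one in the control list, where Alb had none. The windows of the 6 were covered over 37776 bp in the control list and 32241 bp in the LSD1-LKO list. None of the 4 immune cell markers (Clec4f, Adgre1, Ptprc and Cd5l) had any H3K4me2 peak in its window. Among 4 markers each, the endothelial windows were covered over 8454 and 8965 bp, with a promoter peak at Kdr alone, in the LSD1-LKO list. The cholangiocyte windows were covered over 3718 and 3691 bp, with Krt19 and Krt7 at 0. Promoter peaks of high rank were found in both lists at Epcam (percentiles 76.7 and 83.4) and Sox9 (97.8 and 84.4). The stellate windows were covered over 0 and 277 bp, at the Lrat promoter, with Des, Pdgfrb and Col1a1 at 0. Of 4 genes of other organs (Ckm, Gfap, Myod1 and Neurod1), none had an H3K4me2 promoter peak, but their windows together were covered over 2273 and 3116 bp, with Myod1 at 0 in both lists, and 2 held LSD1 peaks. The mere presence of H3K4me2 in a window outside the promoter therefore did not separate liver genes from these. The covered length of the whole window did differ between the sets. It was 37776 and 32241 bp over the 6 hepatocyte markers, against 2273 and 3116 bp over these 4 genes. Single genes overlapped, as Alb was covered over a shorter stretch than Ckm in the control list. The part of other cell types in the P450 differences was not tested.

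The stretches of DNA that the P450 results turn on are printed first, all from the GRCm38 genome and in the direction of transcription. The first set is the center of the LSD1 promoter peak, without annotated exons, at Cyp3a13, which had the highest-ranking LSD1 promoter peak of the family (chr5:137921620-137921892, minus strand), at the steroid 17α-hydroxylase gene Cyp17a1 (chr19:46673173-46673275, minus strand), at Cyp3a25 (chr5:146009676-146009975, minus strand) and at the sterol 27-hydroxylase gene Cyp27a1 (chr1:74712989-74713288, plus strand). Capitals mark the nuclear receptor half-site AGGTCA, or its reverse complement, and the HNF1 letters GTTAATNAT, or their reverse complement.
Cyp3a13: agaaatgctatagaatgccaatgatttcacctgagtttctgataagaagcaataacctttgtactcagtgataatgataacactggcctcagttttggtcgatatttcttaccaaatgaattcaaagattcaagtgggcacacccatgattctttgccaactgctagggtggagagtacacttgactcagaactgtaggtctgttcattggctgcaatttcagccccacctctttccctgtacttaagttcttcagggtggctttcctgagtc
Cyp17a1: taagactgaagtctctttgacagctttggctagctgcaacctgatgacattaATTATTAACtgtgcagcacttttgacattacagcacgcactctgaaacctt
Cyp3a25: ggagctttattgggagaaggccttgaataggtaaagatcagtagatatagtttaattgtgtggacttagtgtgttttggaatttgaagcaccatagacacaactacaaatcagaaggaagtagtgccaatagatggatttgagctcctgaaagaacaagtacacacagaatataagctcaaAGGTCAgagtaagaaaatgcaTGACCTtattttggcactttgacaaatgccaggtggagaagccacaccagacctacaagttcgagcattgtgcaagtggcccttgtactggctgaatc
Cyp27a1: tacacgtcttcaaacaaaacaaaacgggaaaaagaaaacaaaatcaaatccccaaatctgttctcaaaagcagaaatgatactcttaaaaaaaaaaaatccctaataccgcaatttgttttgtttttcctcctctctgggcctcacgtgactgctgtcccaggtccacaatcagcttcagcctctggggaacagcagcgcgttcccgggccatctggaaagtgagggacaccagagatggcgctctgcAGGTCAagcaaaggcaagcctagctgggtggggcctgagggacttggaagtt

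The second set is the 250 bases before the 5′ end of 2 genes whose promoter had an H3K4me2 peak in 1 list only. They are the bile acid synthesis gene Cyp8b1 (chr9:121916306-121916555, minus strand; LSD1-LKO list) and the Cyp2c gene with the longest such stretch, Cyp2c68 (chr19:39741055-39741304, minus strand; control list). Capitals mark a TATA box (TATAAA starting 20 to 40 bases before the 5′ end), the HNF4A letters CAAAGTCCA and the core TNGCGTG bound by the aryl hydrocarbon receptor, the last 2 on either strand.
Cyp8b1: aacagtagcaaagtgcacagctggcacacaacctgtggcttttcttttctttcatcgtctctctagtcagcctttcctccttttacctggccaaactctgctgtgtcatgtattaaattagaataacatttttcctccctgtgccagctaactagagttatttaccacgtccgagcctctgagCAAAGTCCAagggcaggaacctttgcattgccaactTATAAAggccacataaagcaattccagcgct
Cyp2c68: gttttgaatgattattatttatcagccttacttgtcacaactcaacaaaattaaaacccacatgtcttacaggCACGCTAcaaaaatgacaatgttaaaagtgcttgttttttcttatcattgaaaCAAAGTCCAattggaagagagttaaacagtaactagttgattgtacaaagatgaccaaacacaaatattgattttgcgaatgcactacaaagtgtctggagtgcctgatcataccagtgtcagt

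LSD1 peaks were found at P450 promoters about as often as at other promoters. Of the 94 genes, 20 (21.3%) had an LSD1 promoter peak, beside 23.6% of all protein-coding genes. Within the gene window, 44 P450 genes (46.8%) had an LSD1 peak, beside 38.6% of all genes, the median window being 31.2 kb for P450 genes and 27.4 kb for all genes. The windows held 66 different LSD1 peaks, of which 24 lay at a P450 promoter and 42 elsewhere. A window with LSD1 held between 1 and 4 peaks. The sterol 27-hydroxylase gene Cyp27a1 and Cyp4f13, of a family that oxidizes long-chain fatty acids and leukotrienes, held 4 each.

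**Figure D1:**
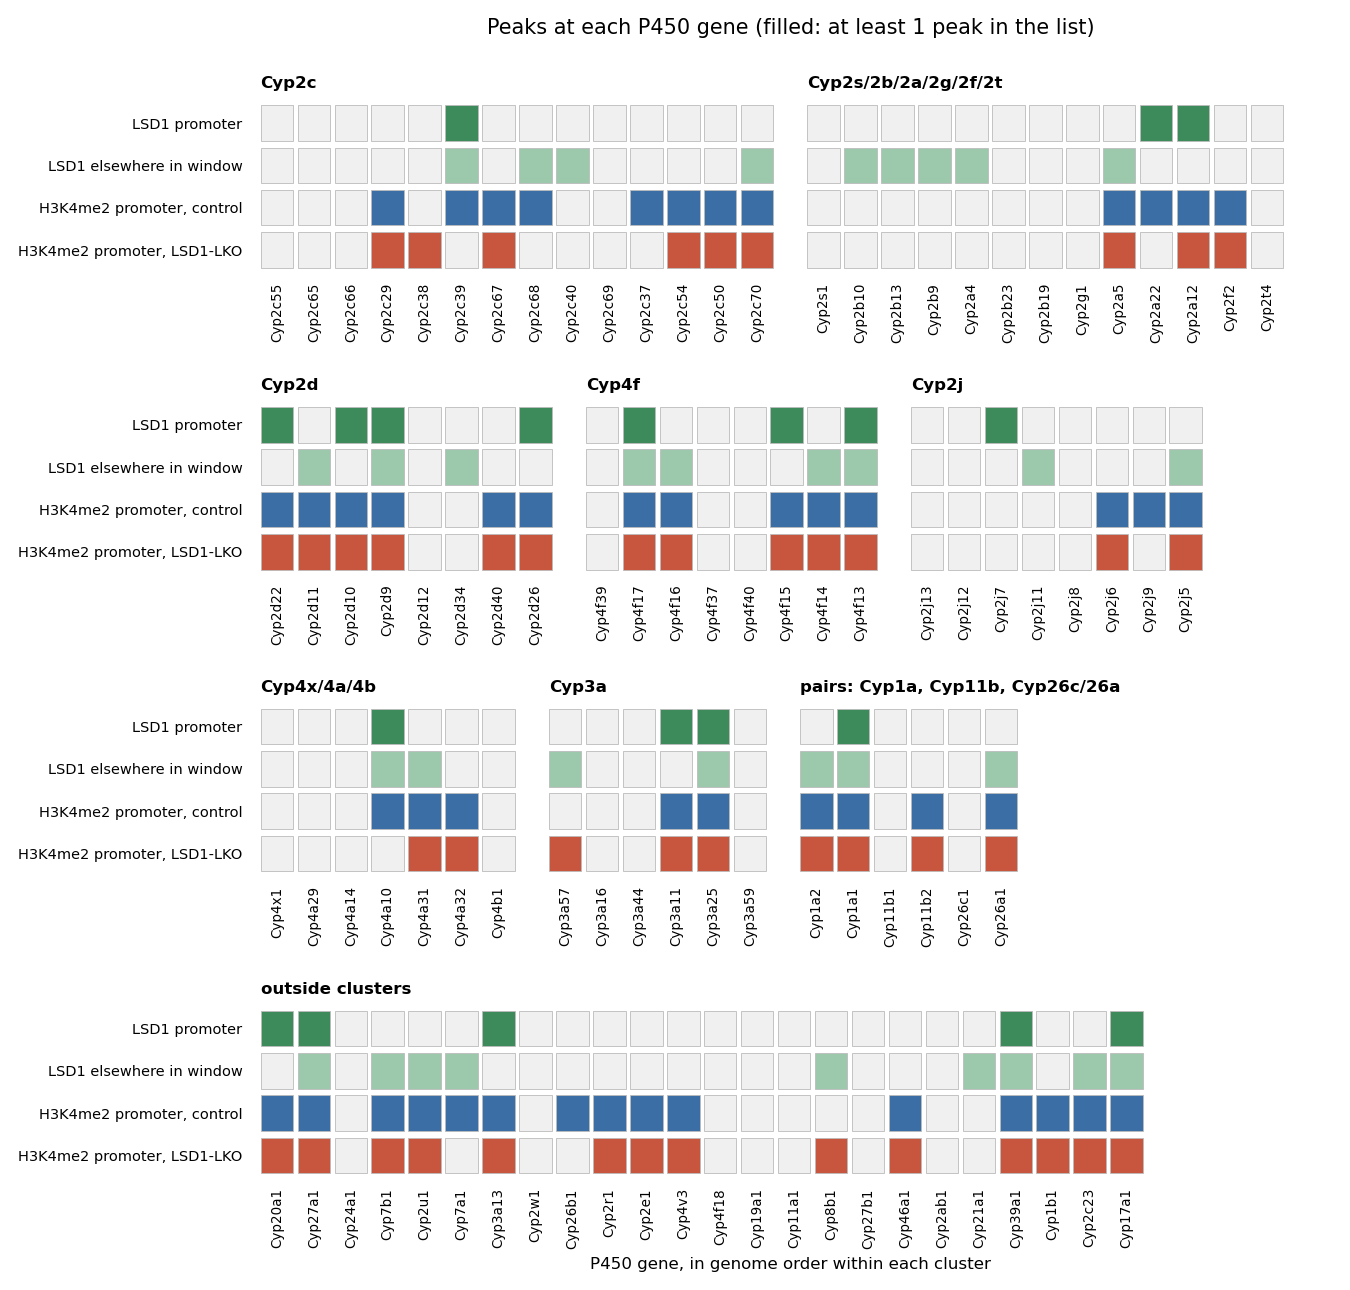
Peaks at each of the 94 P450 genes. Columns are genes in genome order within each cluster, rows are an LSD1 promoter peak, an LSD1 peak elsewhere in the gene window, and an H3K4me2 promoter peak in the control and in the LSD1-LKO list, and a filled tile means at least 1 peak. Blue without red below it marks the 8 promoters with H3K4me2 in the control list only, and red without blue the 3 with H3K4me2 in the LSD1-LKO list only.

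The LSD1 promoter peaks of P450 genes were of middle rank. The highest-ranking LSD1 promoter peak per gene had a median percentile of 61.6 over the 20 P450 genes and 72.4 over all genes with one, and 14 of the 20 stood in the upper part of the list, at percentile 50 or above. Fold enrichment in the first-listed library ran from 1.80 to 5.59 with a median of 2.99, and in the second-listed library from 2.17 to 6.29 with a median of 3.52. The plot of the 20 peaks by library shows both values of each gene.

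The 8 highest-ranking LSD1 promoter peaks belonged to genes of different roles. Cyp3a13, a member of the drug-metabolizing Cyp3a subfamily that lies apart from the Cyp3a cluster, ranked at percentile 90.8 with fold enrichments of 3.24 and 6.29 in the 2 libraries. A second LSD1 peak upstream of it ranked at 90.5. Cyp20a1, an orphan P450 with no settled substrate, ranked at 88.1 with enrichments of 4.67 and 3.84. Cyp17a1 ranked at 84.7 with 4.34 and 3.84. Cyp1a1, the aryl hydrocarbon receptor target that oxidizes polycyclic aromatic hydrocarbons, ranked at 84.6 with 5.59 and 2.97. Cyp3a25 and Cyp27a1 both ranked at 78.8, and their enrichments were 2.82 and 5.20 for Cyp3a25 and 2.00 and 5.93 for Cyp27a1. Cyp2c39, a retinoic acid and arachidonic acid oxidase, ranked at 75.2 with 2.94 and 4.61, and the Cyp2a gene Cyp2a12 at 72.8 with 2.97 and 4.27. The values of the 2 libraries were thus close for Cyp20a1 and Cyp17a1, whereas for Cyp27a1 the second value was far above the first and for Cyp1a1 far below it.

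**Figure D2:**
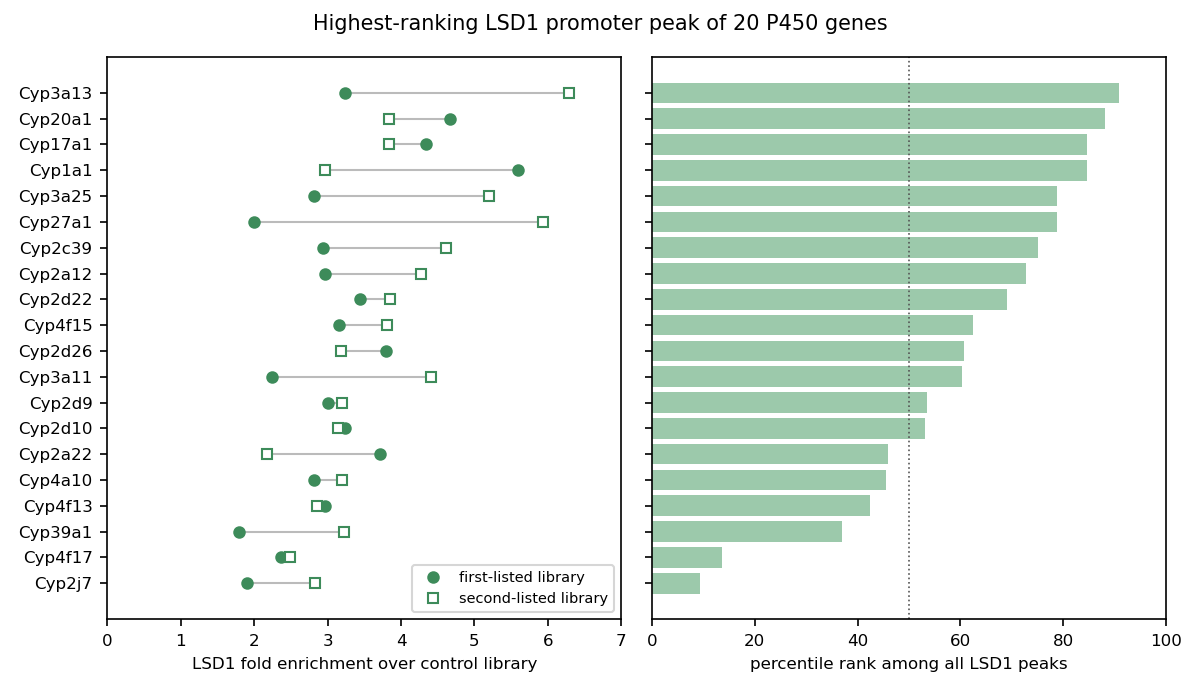
Highest-ranking LSD1 promoter peak of the 20 P450 genes that had one. Left, fold enrichment over the control library in the first-listed library (filled circles, 1.80 to 5.59) and the second-listed library (open squares, 2.17 to 6.29), joined by a line. Right, the percentile rank among the 14584 LSD1 peaks, with the dotted line at 50, which 14 genes reach.

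Most of these peaks were weak by the MACS statistics. A q-value at or below 0.05 in both libraries was listed for 8 of the 66 LSD1 peaks in P450 windows (12.1%) and for 14.4% of all LSD1 peaks. At promoters the shares were 2 of 24 (8.33%) for P450 genes and 25.5% for all protein-coding genes. With this q-value required, 2 P450 genes kept an LSD1 promoter peak, beside 6.59% of all genes, and 8 kept one in the window, beside 9.69%.

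Of the 24 LSD1 peaks at P450 promoters, 16 (66.7%) overlapped a control H3K4me2 peak, whereas 91.7% of the LSD1 peaks at all promoters did. The sets overlap because the P450 peaks are part of all promoter peaks. Neither H3K4me2 list had a peak at 5 of the 24 (20.8%, beside 3.91%). Taken by gene, 16 of the 20 P450 genes with an LSD1 promoter peak had H3K4me2 at the promoter in both lists. Cyp4a10, Cyp2a22 and Cyp2c39 had it in the control list only, and Cyp2j7, whose LSD1 peak ranked at percentile 9.37, in neither. With 1 TSS per gene, Cyp1a1 had H3K4me2 at the promoter in the control list only and Cyp2d9 in neither. The 42 LSD1 peaks elsewhere in P450 windows overlapped control H3K4me2 in 14 cases (33.3%), beside 31.4% of all LSD1 peaks outside promoters.

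The highest-ranking LSD1 peak in a P450 window, at percentile 98.7 with enrichments of 5.57 and 6.18, lay downstream of Cyp1a1 at the promoter of the neighboring gene Edc3. Next came the Cyp4f13 exon peak at percentile 95.4 (4.37 and 6.00) and a peak centered at -1991 bp from the Cyp3a25 TSS at 92.9 (5.22 and 5.06). The 3′ end of Cyp4f13 and the region upstream of Cyp3a25 were marked with H3K4me2 in both lists.

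H3K4me2 was found at slightly fewer P450 promoters than at promoters in general. In the control list 50 P450 genes (53.2%) had a promoter peak, beside 58.8% of all protein-coding genes. In the LSD1-LKO list 45 (47.9%) had one, beside 58.9%. Both lists marked 42 P450 promoters and neither marked 41. The promoter peaks of P450 genes ranked lower than those of other genes, with a median percentile of 54.8 for the highest-ranking peak per gene in the control list and 58.0 in the LSD1-LKO list, beside 81.7 and 82.2 over all genes. The whole gene window was without H3K4me2 in both lists for 23 P450 genes (24.5%), beside 29.7% of all genes.

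P450 promoters were poor in CpG dinucleotides, which are dense at most promoters of broadly expressed genes. Within 500 bp of the 5′ end the observed-to-expected CpG ratio had a median of 0.153 over the 94 genes, with quartiles of 0.0923 and 0.252, and of 0.552 over all protein-coding genes. A ratio of 0.6 or more was found in 8 P450 genes (8.51%), beside 45.9% of all genes. These 8 were Cyp20a1, Cyp24a1, Cyp2u1, Cyp2r1, Cyp4v3, Cyp46a1, Cyp39a1 and Cyp26a1, none of which belongs to the large Cyp2, Cyp3 and Cyp4 clusters. Of the 8, 7 were marked with H3K4me2 in both lists, the exception being the vitamin D 24-hydroxylase gene Cyp24a1. Among genes with a ratio below 0.6, 43 of 86 P450 genes had a control H3K4me2 promoter peak, beside 32.0% of all such genes, and 18 (20.9%) had an LSD1 promoter peak, beside 10.2%. By these shares, P450 promoters stood at or below all promoters for each mark, and above all promoters poor in CpG.

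Sequence motifs at P450 promoters were counted in the 250 bases before to 50 bases after the 5′ end. The HNF4A letters, on either strand, were in 9 of 94 P450 promoters (9.57%) and in 0.412% of all promoters of that length. Of the 9, 6 were Cyp2c genes (Cyp2c40, Cyp2c65, Cyp2c67, Cyp2c68, Cyp2c69 and Cyp2c70), of which Cyp2c40, Cyp2c67, Cyp2c68 and Cyp2c69 are close copies of one another around the 5′ end, and the others were Cyp3a11, Cyp3a16 and Cyp8b1. The half-site AGGTCA was in 28 P450 promoters (29.8%), beside 14.9% of all. A TATA box at the set distance was in 7 (7.45%), beside 2.43%, among them Cyp8b1, as printed above. The aryl hydrocarbon receptor core was in 2 (2.13%), those of Cyp1a1 and Cyp2c68, beside 5.80% of all. The HNF1 letters were in 3 (3.19%), beside 0.751%, and the C/EBP letters TTGCGCAA in none, beside 0.188%. Within 300 bases at the center of LSD1 peaks, the half-site was in 15 of the 66 P450 peaks (22.7%) and in 20.3% of all LSD1 peaks, and the HNF1 letters were in 3 (4.55%), beside 1.30%. Cyp17a1 was one of the 3. The letters TNGCGTG were in 3 (4.55%), beside 4.69%, and the C/EBP letters in 1 (1.52%), beside 0.254%. A match describes the letters and is not a measured binding site.

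H3K4me2 at P450 promoters was more often found in the control list alone than in the LSD1-LKO list alone. There were 8 promoters of the first kind (8.51%, beside 3.09% of all protein-coding genes) and 3 of the second (3.19%, beside 3.18%). At a p threshold of 1e-05 in both libraries the first count was 7 of 94, beside 8.22% of all genes, so that the P450 share no longer stood above the share of all genes. With q at or below 0.05 in both libraries the first count was 13 of 94, beside 5.53%. The 8 were those of Cyp7a1, Cyp26b1, Cyp4a10, Cyp2j9, Cyp2a22, Cyp2c39, Cyp2c68 and Cyp2c37, and the 3 were those of Cyp8b1, Cyp3a57 and Cyp2c38. The same 8 were found in the control list alone with the intervals of the second-listed library. Cyp8b1 was not found in the LSD1-LKO list alone with those intervals, because a control peak then reached its promoter.

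Cyp7a1, the rate-limiting enzyme of the classic bile acid pathway, had a control peak of 1251 bp that covered the TSS, at percentile 54.9 and with enrichments of 4.10 and 5.04. The nearest LSD1-LKO peak was centered 1478 bp downstream of the TSS and stopped short of the promoter window. The retinoic acid hydroxylase gene Cyp26b1 had a control promoter peak at percentile 66.3 with enrichments of 4.85 and 5.76, the highest rank of the 8. This peak lay within the gene, at an internal TSS among the 5 annotated ones. With 1 TSS per gene the Cyp26b1 promoter was marked in neither list. Cyp4a10, a fatty acid ω-hydroxylase gene and PPARα target, had a control peak of 1661 bp at percentile 27.2 with 3.05 and 3.60, and 2 LSD1 peaks overlapped it. Cyp2j9, an arachidonic acid epoxygenase of the Cyp2j family, had a peak at percentile 41.4 with 4.43 and 3.24. The control peaks of Cyp2a22, Cyp2c39 and Cyp2c37 were of low rank, between percentiles 18.6 and 38.8. Cyp2c68 had a long control peak of 2390 bp at percentile 47.0, whose enrichments of 1.89 and 5.76 differed most between the 2 libraries. With p at or below 0.01 required in both libraries, its promoter was marked in neither list.

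Among promoters marked in the LSD1-LKO list only, Cyp8b1 stood out by rank. The gene encodes the sterol 12α-hydroxylase that directs synthesis toward cholic acid. Its LSD1-LKO promoter peak of 1352 bp ranked at percentile 77.2 with enrichments of 5.17 and 5.67. The peaks of Cyp3a57 (percentile 20.4, 3.69 and 2.51) and Cyp2c38 (25.3, 3.69 and 2.86) were narrow and weak.

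The P450 windows held 152 control peaks and 165 LSD1-LKO peaks. Over whole gene windows, H3K4me2 covered 147672 bp of P450 windows in the control list and 123800 bp in the LSD1-LKO list, summed over genes. These are 4.28% and 3.59% of the windows, beside 3.38% and 3.22% for all protein-coding genes. Of the 71 P450 genes with H3K4me2 in either list, 46 (64.8%) were covered over a longer stretch in the control list, beside 57.1% of all such genes, and 25 (35.2%) in the LSD1-LKO list, beside 42.9%. The direction of the sum depended on which library's intervals were used. With the intervals of the second-listed libraries, the P450 windows were covered over 185298 bp in the control list and 188404 bp in the LSD1-LKO list. The LSD1-LKO length was then 102% of control for P450 genes and 111% for all genes, compared with 83.8% and 95.4% with the first-listed intervals and 87.9% and 97.7% with the bases shared by both libraries. The P450 value was thus the lower of the pair each time, while its side of 100% changed.

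For single genes, the length was therefore compared with all 3 interval choices. In 29 P450 genes (40.8% of the 71) it was shorter in LSD1-LKO each time, beside 30.3% of all genes with H3K4me2, and in 19 (26.8%) it was longer each time, beside 32.7%. The 23 others had no single direction.

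The genes furthest longer in the control list were Cyp4f17, Cyp4a32, Cyp2c68, Cyp2e1, Cyp2u1 and Cyp2d10. The Cyp4f17 window was covered over 4829 bp in the control list and 1815 bp in the LSD1-LKO list, and over 4661 and 2501 bp with the second-listed intervals. Cyp2e1, the ethanol- and acetaminophen-oxidizing enzyme of pericentral hepatocytes, had 2785 and 484 bp, and 2583 and 966 bp with the second-listed intervals. The control list had 4 peaks there and the LSD1-LKO list 1, near the start of the gene, and no LSD1 peak lay in its window. With q at or below 0.05 in both libraries the Cyp2e1 window kept 720 and 0 bp. At a p threshold of 1e-05 it kept 0 bp in both lists. Cyp2u1, a fatty acid hydroxylase gene, had 4399 and 2570 bp, and 4738 and 4108 bp. All 3 were shorter in LSD1-LKO with both libraries' intervals.

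For Cyp4a32, of the PPARα-responsive Cyp4a subfamily, most of the difference rested on 1 library, with 3456 and 809 bp by the first-listed intervals and 3227 and 3071 bp by the second-listed ones. Cyp2d10, of the subfamily related to a major human drug-oxidizing enzyme, had 5016 and 3236 bp by the first-listed and 5510 and 4765 bp by the second-listed intervals, but was longer in LSD1-LKO over shared bases, with 2972 and 3236 bp. Cyp2c68 was covered over 2390 bp in the control list and over none in the LSD1-LKO list with any of the 3 choices. Counting only peaks with q at or below 0.05, or with p at or below 1e-05, in both libraries left it with 0 bp in both lists.

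The genes furthest longer in the LSD1-LKO list were Cyp17a1, Cyp8b1, Cyp39a1, Cyp2a4, Cyp4f14 and Cyp4f13. Cyp17a1 had 860 bp in the control list and 4107 bp in the LSD1-LKO list, 997 and 4945 bp with the second-listed intervals and 554 and 3394 bp over shared bases. Its H3K4me2 promoter peaks were of low rank, at percentile 5.29 in control and 23.6 in LSD1-LKO. With q at or below 0.05 the Cyp17a1 window kept 0 and 1170 bp, and at a p threshold of 1e-05 it kept 0 bp in both lists. The LSD1-LKO list had 5 peaks there, of which 4 lay along the gene body and 1 upstream, whereas the control list had 1 peak upstream of the TSS and 1 downstream of the gene. No peak of one list overlapped a peak of the other. Of its 3 LSD1 peaks, the one at the promoter overlapped H3K4me2 in the LSD1-LKO list only. Cyp8b1 had 2422 and 4422 bp, and 4468 and 6660 bp with the second-listed intervals. Cyp39a1, the oxysterol 7α-hydroxylase gene, had 1462 and 2756 bp, and 1700 and 4095 bp with the second-listed intervals, mostly at a promoter region that it shares with Slc25a27.

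Cyp2a4, the testosterone 15α-hydroxylase gene of female liver, had no H3K4me2 in the control list and 1159 bp in the LSD1-LKO list, or 2323 bp with the second-listed intervals. Cyp4f13 had 2763 and 3562 bp, and 3946 and 5469 bp with the second-listed intervals. Cyp4f14, a leukotriene hydroxylase gene, had 1626 and 2627 bp, but 3103 and 2915 bp with the second-listed intervals.

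**Figure D3:**
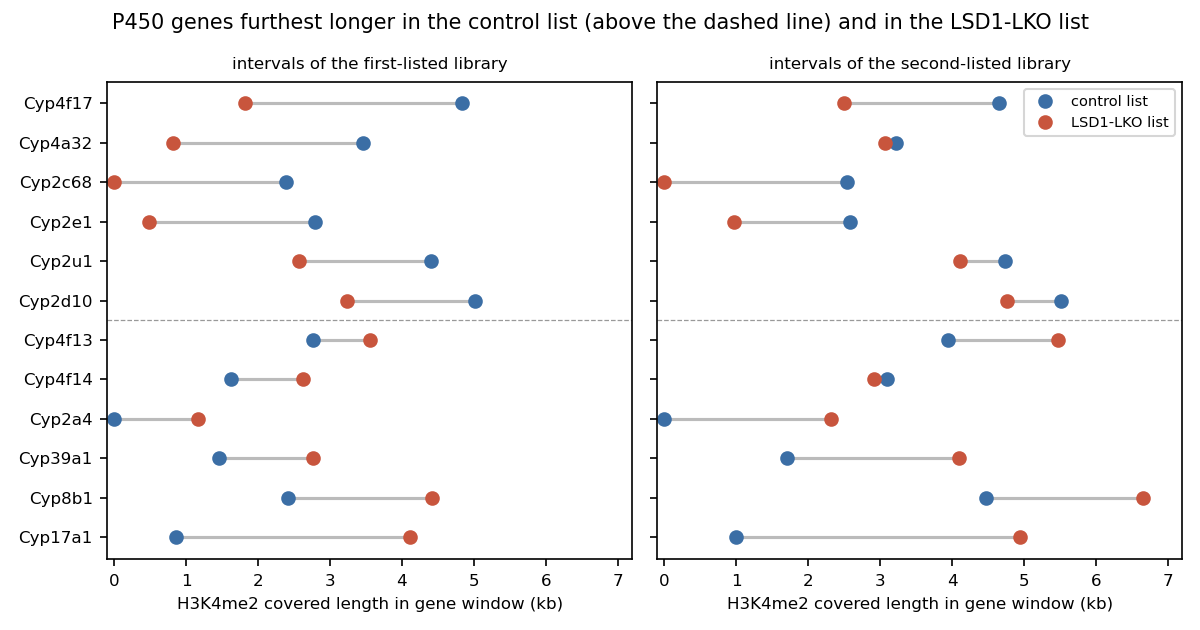
H3K4me2 covered length (kb) in the gene windows in the control list (blue) and the LSD1-LKO list (red) of the 6 P450 genes furthest longer in control (above the dashed line) and the 6 furthest longer in LSD1-LKO. Left, intervals of the first-listed library, by which the genes were chosen. Right, intervals of the second-listed library, where Cyp17a1 has 997 and 4945 bp and Cyp2e1 2583 and 966 bp, while Cyp4a32 and Cyp4f14 lie close together.

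**Figure D4:**
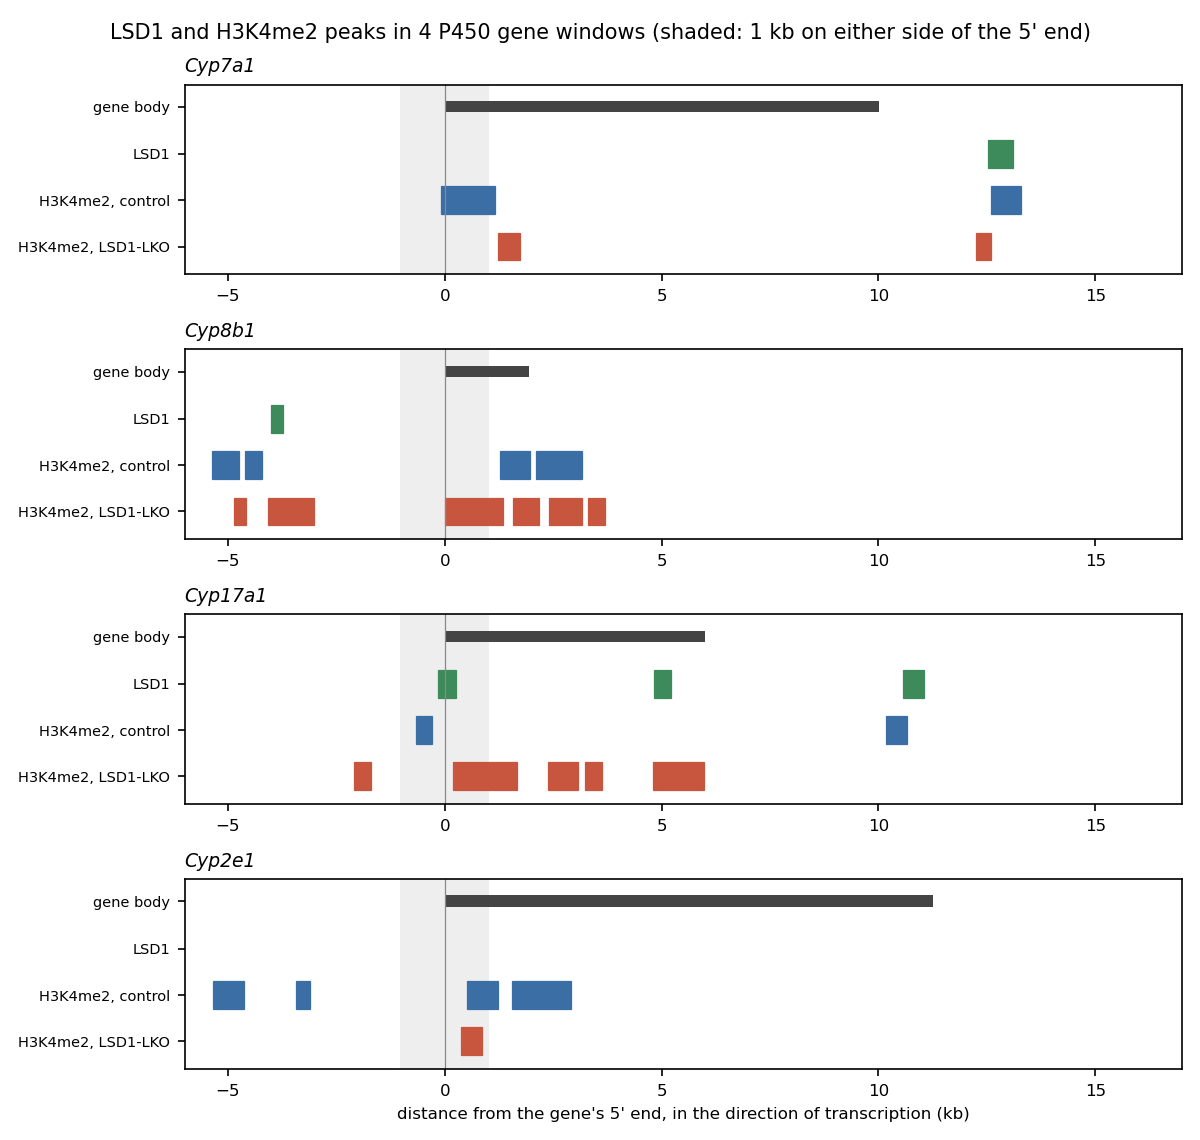
Peaks in the windows of Cyp7a1, Cyp8b1, Cyp17a1 and Cyp2e1, with distance from the gene's 5′ end in kb along the direction of transcription and the 1 kb on either side shaded. Bars are gene bodies (dark grey), LSD1 peaks (green) and H3K4me2 peaks of the control (blue) and LSD1-LKO list (red). Cyp17a1 has 5 LSD1-LKO peaks against 2 control peaks, and Cyp2e1 1 against 4.

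Genes with and without LSD1 in wild-type liver were set side by side. Among P450 genes with H3K4me2, the window was longer in the control list for 12 of 19 genes (63.2%) with an LSD1 promoter peak, for 12 of 23 (52.2%) with LSD1 elsewhere in the window, and for 22 of 29 (75.9%) without LSD1. Over all protein-coding genes the 3 shares lay between 53.9% and 59.0%. The P450 genes without LSD1 thus had the highest of the 3 shares, and the difference was not tested.

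The gene clusters differed from one another. The Cyp2c cluster on chromosome 19, whose enzymes oxidize drugs and arachidonic acid, spans 1180 kb and holds 14 of the genes. Its windows were covered over 14555 bp in the control list and 7139 bp in the LSD1-LKO list, so that the LSD1-LKO length was 49.0% of control. It was 43.1% with the second-listed intervals (18750 and 8081 bp) and 45.1% over shared bases. The length was shorter in LSD1-LKO with each choice in 7 genes (Cyp2c55, Cyp2c39, Cyp2c67, Cyp2c68, Cyp2c37, Cyp2c54 and Cyp2c50) and longer in 1 (Cyp2c38). Cyp2c50, an arachidonic acid epoxygenase gene, had 2274 and 516 bp, Cyp2c67 2346 and 1055 bp and Cyp2c54 1470 and 648 bp. Cyp2c70, which makes muricholic acids, was nearly equal, with 3126 and 3106 bp. Cyp2c29 had H3K4me2 at the promoter in both lists, but in neither with 1 TSS per gene. Its window had 1042 and 1321 bp by the first-listed intervals and 2302 and 1604 bp by the second-listed ones. The peaks of the cluster were mostly weak. With q at or below 0.05 in both libraries, Cyp2c50 kept 1434 and 516 bp and Cyp2c54 1470 and 648 bp. Cyp2c38 kept 0 and 493 bp, in the other direction, and Cyp2c68 and Cyp2c37 had 0 bp in both lists. At a p threshold of 1e-05 Cyp2c55 alone kept H3K4me2, with 724 bp in the control list. Only 4 of the 14 windows held LSD1 peaks, and Cyp2c39 alone had one at the promoter. Cyp2c65, Cyp2c66 and Cyp2c69 had no peak in any list.

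**Figure D5:**
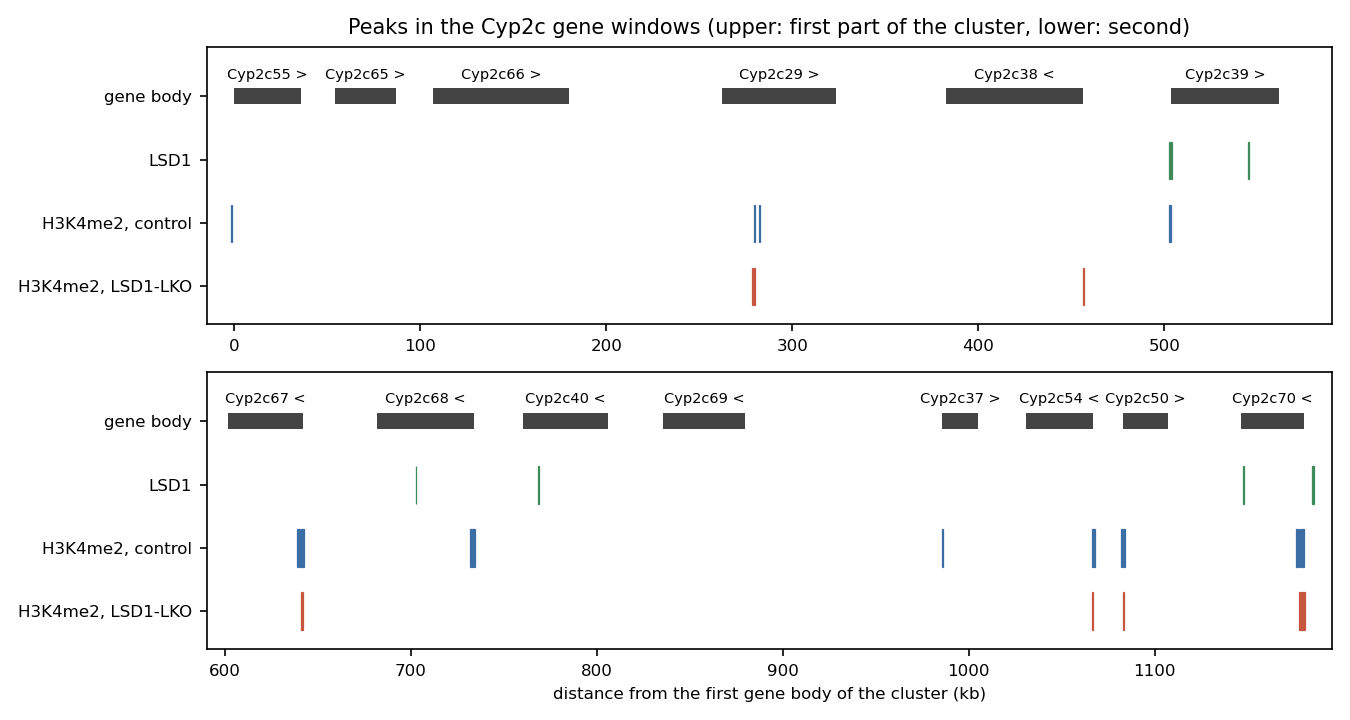
The Cyp2c cluster drawn to scale, with distance from its first gene body in kb (arrowheads give the direction of transcription) and the peaks within the 14 gene windows of the LSD1 list (green), the control H3K4me2 list (blue) and the LSD1-LKO H3K4me2 list (red). Blue bars at the starts of Cyp2c39, Cyp2c68 and Cyp2c37 and just before Cyp2c55 have no red counterpart, and Cyp2c38 has a red bar alone.

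The Cyp4a genes lay in a cluster of 7 on chromosome 4 with Cyp4x1 and Cyp4b1, where the first-listed intervals gave 6580 bp in the control list and 2522 bp in the LSD1-LKO list. The second-listed intervals gave 6586 and 8053 bp, so the sum was shorter in LSD1-LKO by 1 library and longer by the other. Cyp4a10 was shorter in LSD1-LKO with all 3 choices (1661 and 368 bp), while Cyp4a14, another PPARα target, had 0 and 277 bp and Cyp4b1 0 and 408 bp, both longer with all 3.

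Among the clusters of 6 or more genes, the Cyp2d cluster on chromosome 15 had the largest covered share. It spans 424 kb, and H3K4me2 covered 16.5% of the windows of its 8 genes in the control list and 14.5% in the LSD1-LKO list, with 23310 and 20526 bp. In both lists 6 of the 8 promoters were marked, and 4 had an LSD1 peak (Cyp2d22, Cyp2d10, Cyp2d9 and Cyp2d26). The sum was longer in LSD1-LKO with the second-listed intervals (28070 and 32513 bp). The Cyp4f cluster on chromosome 17 was also well marked, with 5 of 8 promoters in each list and LSD1 at those of Cyp4f17, Cyp4f15 and Cyp4f13. Its sums were 17291 and 15539 bp with the first-listed and 20826 and 24669 bp with the second-listed intervals.

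The Cyp2j cluster on chromosome 4 had its H3K4me2 promoter peaks at one end. Cyp2j6, Cyp2j9 and Cyp2j5 had control H3K4me2 promoter peaks, and the first and last of these had LSD1-LKO peaks, whereas Cyp2j13, Cyp2j12 and Cyp2j8 had no peak in any list. Cyp2j5 is an epoxygenase of liver and kidney and was covered over 3834 and 4201 bp by the first-listed intervals, but over 4978 and 3207 bp by the second-listed ones. In the Cyp3a cluster on chromosome 5, Cyp3a11, the main xenobiotic-induced Cyp3a enzyme of mouse liver, and Cyp3a25 had LSD1 and H3K4me2 at the promoter in both lists. At Cyp3a11 the H3K4me2 peaks only reached the edge of the promoter window. They covered 228 bp of it in the control list and 21 bp in the LSD1-LKO list, at percentiles 17.8 and 20.6. With 500 bp on either side of the TSS, the Cyp3a11 promoter had neither LSD1 nor H3K4me2. Cyp3a11 was covered over 292 and 461 bp with the first-listed and 1958 and 1458 bp with the second-listed intervals, and Cyp3a25 over 4725 and 4854 bp, or 4487 and 4288 bp of shared bases. In the mixed cluster on chromosome 7, H3K4me2 promoter peaks were limited to Cyp2a5, Cyp2a22, Cyp2a12 and Cyp2f2 in the control list and to Cyp2a5, Cyp2a12 and Cyp2f2 in the LSD1-LKO list. No Cyp2b promoter was marked in either list.

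Of the 24 genes outside clusters, 15 had an H3K4me2 promoter peak in the control list and 14 in the LSD1-LKO list, beside 35 and 31 of the 70 genes inside clusters. Of the 24, 18 had H3K4me2 in the window. By the first-listed intervals 15 of these (83.3%) were longer in the control list, beside 57.1% of all genes with H3K4me2. The 3 others (16.7%, beside 42.9%) were longer in the LSD1-LKO list, and were Cyp8b1, Cyp39a1 and Cyp17a1. By the second-listed intervals the counts were 10 and 8, and the summed length was 65005 bp in the control list and 68677 bp in the LSD1-LKO list. With all 3 interval choices it was shorter in LSD1-LKO at 9 and longer at the same 3. No peak of any list lay in the windows of 21 P450 genes in all. Besides those named above they were Cyp4x1, Cyp4a29, Cyp3a16, Cyp2b23, Cyp2b19, Cyp2g1, Cyp2d12, Cyp4f40 and Cyp11b1 in clusters and Cyp24a1, Cyp2w1 (reached by the second-listed intervals of both H3K4me2 lists), Cyp4f18, Cyp19a1, Cyp11a1 and Cyp2ab1 outside them. Several of these act in other organs, such as the aromatase gene Cyp19a1 in gonads and the side-chain cleavage gene Cyp11a1 in steroid-making glands.

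The counts by role stand beside those of all protein-coding genes, of which 38.6% had LSD1 in the window and 58.8% and 58.9% an H3K4me2 promoter peak in the 2 lists. Of all genes with H3K4me2, 30.3% were shorter and 32.7% longer in LSD1-LKO with each interval choice. The lists are small, and no difference from these shares was tested.

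The 6 bile acid and cholesterol side-chain genes all had H3K4me2 in the window in both lists, and 5 of 6 had LSD1 in the window, all but the brain cholesterol 24-hydroxylase gene Cyp46a1. The length was shorter in LSD1-LKO with all 3 interval choices at Cyp27a1 and at the oxysterol 7α-hydroxylase gene Cyp7b1, and longer at Cyp8b1 and Cyp39a1. Cyp27a1 was covered over 8886 and 7891 bp, and Cyp7b1, which is higher in male liver, over 6423 and 4743 bp. Cyp7a1 was covered over 1941 and 841 bp with the first-listed and 1023 and 1815 bp with the second-listed intervals. An LSD1 peak lay downstream of Cyp7a1, at percentile 57.1, and one at -3872 bp from the Cyp8b1 TSS at 24.8, where H3K4me2 was found in the LSD1-LKO list only. The 3 LSD1 peaks of Cyp7b1 were intronic, with the highest at percentile 42.0.

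Of the 6 steroid hormone genes, Cyp17a1 and the aldosterone synthase gene Cyp11b2 had H3K4me2 promoter peaks, both in both lists. LSD1 was found in the windows of Cyp17a1 and of the 21-hydroxylase gene Cyp21a1, where its peak lay at -4287 bp from the TSS, at percentile 67.9. Of the 3 retinoic acid hydroxylase genes, Cyp26a1 was marked at the promoter in both lists and had an LSD1 peak downstream at percentile 74.4, and Cyp26c1 was marked only in its window, over 2987 and 2865 bp by the first-listed and 2308 and 3472 bp by the second-listed intervals. Of the 3 vitamin D genes, none had LSD1 in the window, and the 25-hydroxylase gene Cyp2r1 was the one with H3K4me2 at its promoter, with 1552 and 1298 bp in the window.

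All 3 aryl hydrocarbon receptor targets were shorter in LSD1-LKO with each interval choice, beside 30.3% of all genes with H3K4me2. Cyp1a2, the caffeine-oxidizing enzyme of pericentral hepatocytes, was covered over 2817 and 1561 bp, Cyp1a1 over 2436 and 1948 bp and Cyp1b1 over 1345 and 627 bp. For Cyp1b1 the direction turned when only peaks with q at or below 0.05 in both libraries were counted (522 and 627 bp). Cyp1a1 and Cyp1a2 lie head to head with overlapping windows, and the LSD1 peak of the Cyp1a1 promoter lay within both. H3K4me2 peaks at the Cyp1a2 promoter in both lists also reached into the Cyp1a1 window. The difference at the Cyp1a2 promoter was thus counted for both genes, whose values are not independent.

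Of the 8 CAR and PXR targets, the receptors that sense drugs, 6 had LSD1 in the window, beside 38.6% of all genes, and 4 had H3K4me2 at the promoter in each list, beside 58.8% and 58.9%. Cyp2b10, the main CAR target, had an intronic LSD1 peak at percentile 42.4, with 1220 bp of H3K4me2 upstream in the control list and none in the LSD1-LKO list. Cyp3a13 was covered over 2975 and 2510 bp, and Cyp2c55 over 724 bp and none. Of the 6 zonated genes, all had a control promoter peak and 5 an LSD1-LKO one, beside 58.8% and 58.9%, Cyp7a1 being the exception. With 1 TSS per gene, Cyp2c29 and Cyp2f2 had a promoter peak in neither list. With 500 bp on either side of the TSS, Cyp3a11 had one in neither. Cyp2f2, an enzyme of periportal hepatocytes, was covered over 3973 and 3516 bp, but at q at or below 0.05 over 0 and 1085 bp.

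The 6 genes known to be higher in female liver (Cyp2a4, Cyp2b9, Cyp2b13, Cyp2c69, Cyp3a16 and Cyp3a44) had no H3K4me2 promoter peak in either list, while the 2 higher in male liver, Cyp7b1 and Cyp2d9, had one in both. Within their windows the female group was covered over 501 bp in the control list, all of it upstream of Cyp2b9, and over 3134 bp in the LSD1-LKO list. Of the 6, 4 had H3K4me2 in the window in either list. The length was longer in LSD1-LKO with each interval choice for all 4, beside 32.7% of all genes with H3K4me2. It was shorter for 0, beside 30.3%. Besides Cyp2a4, the 4 were Cyp2b9 (501 and 682 bp), Cyp2b13 (0 and 583 bp) and Cyp3a44 (0 and 710 bp). All but Cyp2b9 had no length in the control list that could be shorter in LSD1-LKO. Counting only peaks with q at or below 0.05 left Cyp2b9 with 501 bp in the control list and 0 in the LSD1-LKO list. Cyp2b13 and Cyp3a44 then had 0 bp in both lists, and Cyp2a4 alone stayed longer in LSD1-LKO, with 0 and 657 bp. At a p threshold of 1e-05 all 4 had 0 bp in both lists. Of the female-predominant genes left out by the name rule, Cyp3a41a had 288 and 866 bp and Cyp3a41b 825 and 0 bp, in opposite directions. The peaks were weak, at percentile 38.9 or below, and lay upstream, in introns or downstream. LSD1 peaks lay in the windows of Cyp2a4, Cyp2b9 and Cyp2b13, at percentiles of 44.5, 57.0 and 13.0. Cyp2d9 was covered over 6039 and 5522 bp, or 4943 and 5325 bp of shared bases, and had 3 LSD1 peaks.

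Some P450 genes are close copies, which limits how well short reads can be placed. The 1 kb on either side of the 5′ end had another match in the genome of at least 1000 aligned bases at 90% identity or more in 24 of the 94 genes, and of at least 95% in 11. The closest pairs were Cyp2a4 and Cyp2a5 (98.7%), Cyp2b9 and Cyp2b13 (97.2%) and Cyp2c40 and Cyp2c69 (96.8%). Of the 11 promoters with H3K4me2 in 1 list only, 4 were among the 24, those of Cyp4a10, Cyp2a22, Cyp2c68 and Cyp2c37. The 24 also included Cyp2a4, Cyp2b9, Cyp2b13 and Cyp3a44, the female-predominant genes that were longer in LSD1-LKO with each interval choice. The values of these genes are uncertain to that extent, and the part of misplaced reads in them was not tested.

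Genes that work with the P450 enzymes were also counted. All 8 genes of redox partners and heme synthesis, such as the P450 reductase gene Por and the heme synthesis gene Alas1, and all 10 genes of regulators, such as the receptors Nr1i2 (PXR), Nr1i3 (CAR) and Nr1h4 (FXR), had H3K4me2 promoter peaks in both lists, as did 55.7% of all genes. LSD1 promoter peaks were found at 4 of the 8 and 4 of the 10, beside 23.6% of all genes. By the first-listed intervals, the windows of the redox and heme group were covered over 53674 and 40827 bp, with Por at 12475 and 7138 bp. Those of the regulators were covered over 122142 and 123679 bp. Over all genes the LSD1-LKO length was 95.4% of control by these intervals and 111% by the second-listed ones. The second-listed intervals were not applied to these groups, so the direction of their sums is not settled.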

How the data were processed

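The authors mapped reads to mm10 with Bowtie 2, called narrow peaks per library with MACS against control libraries and intersected the peaks of paired libraries with BEDtools (bedtools 2.25.0 in the submitters' processing notes), without pooling. The fold enrichment, a ratio of ChIP over control signal, and the −log10 p- and q-values are the authors' deposited MACS values. The smallest listed −log10 p was 1.30, weaker than the threshold in the methods. Library names in the H3K4me2 lists differ in their processing marks between the first- and second-listed library, alike in both groups. Another 12 columns of integer scores and summit offsets were not used. A second-listed peak can partner several first-listed peaks.

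Interval positions were those of the first-listed library, counted from 1, with an overlap of at least 1 bp. Members and gene lists were chosen with earlier results of these data known. Clusters are genes of 1 family at most 500 kb apart. Named are the genes of each role list with LSD1 in the window, the 8 highest-ranking LSD1 promoter peaks, promoters marked in 1 list only, the 6 largest gains and losses, and genes without peaks, as well as genes added after their values were seen to describe clusters and lists. Interval code was tested on simulated data. Promoter copies were searched with BLAST 2.17.0. Python 3.11.15, numpy 2.4.6 and pandas 2.3.3 were used. One promoter sequence is not reported here.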

Additional observations from a re-analysis of the deposited data

How the results depend on the processing

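Most counts of P450 genes stayed within 1.5 times the reported ones. At a p threshold of 1e-05, LSD1 promoter peaks were at 2 genes and LSD1 window peaks at 6, beside 5.49% and 8.05% of all. H3K4me2 promoter peaks were at 28 genes in the control and 24 in the LSD1-LKO list, beside 47.4% and 44.6%. The covered lengths were 78548 and 57723 bp for control and LSD1-LKO. Control-only promoters then numbered 7, beside 8.22% of all genes. With q at or below 0.05 the LSD1 counts were 2 and 8, beside 6.59% and 9.69% of all genes. The control-only promoters numbered 13, beside 5.53%, and the lengths were 108700 and 75749 bp. Requiring 50% of the peak within the promoter gave 13 promoters marked in control alone and 6 in LSD1-LKO alone, beside 3.82% and 4.49%. The gene body alone gave a control length of 101156 bp, and 20 kb around it gave 278179 and 232604 bp. Taking peak positions from the second-listed library gave 185298 and 188404 bp, the only setting in which the LSD1-LKO length was the longer. That setting moved the peak boundaries and left out no library, because every listed peak had to be found in both. None of the 11 promoters marked in 1 list only kept that class in all 10 settings.

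The settings of any transcript type, of p at or below 0.01 and of peaks at other genes' promoters left out were chosen after seeing the data. No paired analysis was possible because the lists carry no replicate numbers. Lists of peaks found in both libraries limit these results: depth, unshared peaks and the spread between animals were not available to the comparisons, and a peak just under the caller's threshold counts as none.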
